A study of Mus musculus with 2 samples.

Results

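The miR-200 family comprises 5 microRNA (miRNA) genes in the mouse, Mir200b, Mir200a and Mir429 on chromosome 4 and Mir200c and Mir141 on chromosome 6. They were taken by gene symbol from a small RNA sequencing series of hippocampus, and all 5 were found among the 2202 miRNA genes counted there. It consists of 2 libraries in 1 group, labelled biological replicates 1 and 2. The tissue came from 2-month-old females of the strain B6CASTF1/J, a first-generation cross between a laboratory strain and a strain derived from Mus musculus castaneus. The labels name no treatment and no allele beyond this strain, and the layer of hippocampus that was taken is not specified. The replicates have separate tissue records but share a donor record, and nothing in the labels says that they came from separate animals, so the spread between them may be partly technical. The design therefore gives a level for each gene and a comparison of the replicates, and no contrast of conditions.

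miRNAs are short RNAs cut from hairpin precursors, and they repress messenger RNAs that pair with the seed, bases 2 to 8 of the mature strand. The miR-200 family is known from epithelial cells, where it represses the transcription factors Zeb1 and Zeb2 and so helps to keep cells epithelial, while Zeb1 and Zeb2 in turn repress the family's genes. In the nervous system the family is best known from olfactory neurons and their precursors.

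The mature 3p strands are shown because they define the grouping used throughout. They are given 5′ to 3′ from RefSeq (GRCm38.p6), which held all 5 genes, and capitals mark the seed. In 3 members the seed reads AAUACUG:
miR-200b-3p: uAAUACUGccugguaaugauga
miR-200c-3p: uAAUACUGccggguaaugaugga
miR-429-3p: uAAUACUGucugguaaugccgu
In the other 2 members it reads AACACUG:
miR-200a-3p: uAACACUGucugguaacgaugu
miR-141-3p: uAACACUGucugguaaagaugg

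Counted from 1 at the 5′ end, the seeds differ by a base at position 4, given as U4C from miR-200b-3p to miR-200a-3p. No other mature mouse miRNA in the RefSeq table carries either seed. The most alike pairs cross the genomic clusters. Over the first 22 bases, miR-200b-3p of chromosome 4 and miR-200c-3p of chromosome 6 are identical at 20 and differ by U11G and A22G. Likewise miR-200a-3p and miR-141-3p are identical at 20 of 22 bases and differ by C17A and U22G. Every pair within a cluster is less alike than these, with 18 of 22 identical bases. Not every pair across the clusters is more alike, since miR-200c-3p and miR-429-3p, which share the seed, are identical at 17.

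The 5p strands, from the other side of each hairpin, are shown because the deposited counts are per gene and hold reads of both strands together:
miR-200b-5p: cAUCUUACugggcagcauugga
miR-200a-5p: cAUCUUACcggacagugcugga
miR-429-5p: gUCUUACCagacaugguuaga
miR-200c-5p: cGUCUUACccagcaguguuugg
miR-141-5p: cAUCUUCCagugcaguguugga

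The 5p seeds do not follow the 3p grouping, since Mir200a and Mir200b have the same 5p seed, AUCUUAC, and each of the other members has its own. The longest stretch that a member's hairpin shares with any other miRNA gene is 17 bases, between Mir200a and Mir141. For Mir200b and Mir200c it is 14 bases, shared with each other, and for Mir429 it is 13 bases, shared with Mir218-2. All of these are shorter than a mature strand of 21 to 23 bases. The number of mismatches allowed in mapping was not stated in the sources used here.

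In the GENCODE M21 annotation of mm10 all 5 hairpins lie on the minus strand, and none overlaps coding sequence. The chromosome 4 cluster spans 1846 bases in the order Mir200b (ENSMUSG00000065549.3, chr4:156055681-156055750), Mir200a (ENSMUSG00000065400.1, chr4:156054896-156054985) and Mir429 (ENSMUSG00000065427.1, chr4:156053905-156053987), with gaps of 695 and 908 bases. All 3 lie in introns of Ttll10, a member of the tubulin tyrosine ligase-like family, on its own strand. They also lie within the non-coding gene Gm13648, Mir429 in an exon and Mir200b and Mir200a in introns. The chromosome 6 cluster spans 477 bases, with Mir200c (ENSMUSG00000065462.3, chr6:124718322-124718390) 336 bases before Mir141 (ENSMUSG00000065474.1, chr6:124717914-124717985). Both lie in introns of the non-coding gene Gm15884, and the 3′ end of Mir141 overlaps an exon of the unclassified transcript Gm29008. The nearest protein-coding genes are Phb2, 963 bases away on the plus strand, and the phosphatase gene Ptpn6, 2316 bases away on the minus strand.

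Replicate 1 held 4517648 reads on the sense strand of miRNA genes and replicate 2 held 5979247, and levels are counts per 1000000 of these (CPM). With 0 counts up to 3 are allowed, a level of 0.664 CPM in replicate 1 or 0.502 CPM in replicate 2. These limits and all intervals express the counting error of reads alone. Reads were amplified and are not independent molecules, so the intervals may be too narrow for counts of molecules. The tissue label was checked against lists of marker miRNAs, which were chosen with earlier results of these data known. The neuronal miRNAs Mir132, Mir128-1 and Mir137 stood at 20435, 12311 and 8276 CPM on average. The oligodendrocyte miRNA Mir338 stood at 4127 CPM and the endothelial miRNA Mir126a at 12438 CPM. These were the highest genes of their lists. The lowest were Mir218-1 (neuronal) at 29.1 CPM, Mir219a-1 (oligodendrocyte) at 8.72 CPM and Mir145a (endothelial and mural) at 311.7 CPM. No list separates hippocampus from other forebrain.

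The family was scarce in this tissue and scarcer in replicate 2. Together its 5 genes held 382.3 CPM in replicate 1 (95% Wilson interval 364.7 to 400.7) and 119.6 CPM in replicate 2 (111.1 to 128.7), a mean of 250.9 ± 185.8 CPM (SD, n = 2). These are 0.0382% and 0.0120% of all counts on miRNA genes. The summed level was 3.20-fold higher in replicate 1 (95% exact binomial interval 2.93 to 3.49), and the SD is nearly as large as the mean. By mean level the members ranked 202nd to 339th of the 2202 genes, of which 774 had a count in either library.

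Each member was counted in both libraries with at least 17 reads. The mature strands all have 21 to 23 bases, so counts were not divided by length when the members were set side by side. Mir200c was the most abundant member in replicate 1, with 715 counts or 158.3 CPM (147.1 to 170.3), but had 161 counts or 26.9 CPM (23.1 to 31.4) in replicate 2. Mir429 had 594 counts or 131.5 CPM (121.3 to 142.5) in replicate 1 and 296 counts or 49.5 CPM (44.2 to 55.5) in replicate 2, where it was the most abundant. The 2 genes thus exchanged the leading place, and their intervals did not overlap in either library.

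Mir200b came after both in replicate 1 with 260 counts, 57.6 CPM (51.0 to 65.0), and next to Mir429 in replicate 2 with 179 counts, 29.9 CPM (25.9 to 34.7). In replicate 2 its interval overlapped that of Mir200c, so the order of these 2 genes is not separated there. Mir200a had 116 counts, 25.7 CPM (21.4 to 30.8), and 62 counts, 10.4 CPM (8.09 to 13.3). Mir141 was the lowest member in both libraries, with 42 counts, 9.30 CPM (6.88 to 12.6), and 17 counts, 2.84 CPM (1.78 to 4.55). Both genes with the AACACUG 3p seed therefore stood below all 3 genes with the AAUACUG 3p seed in each library. These are gene levels with reads of both strands, not levels of the 3p strands. In every member the interval of replicate 1 lay wholly above that of replicate 2.

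**Figure D1:**
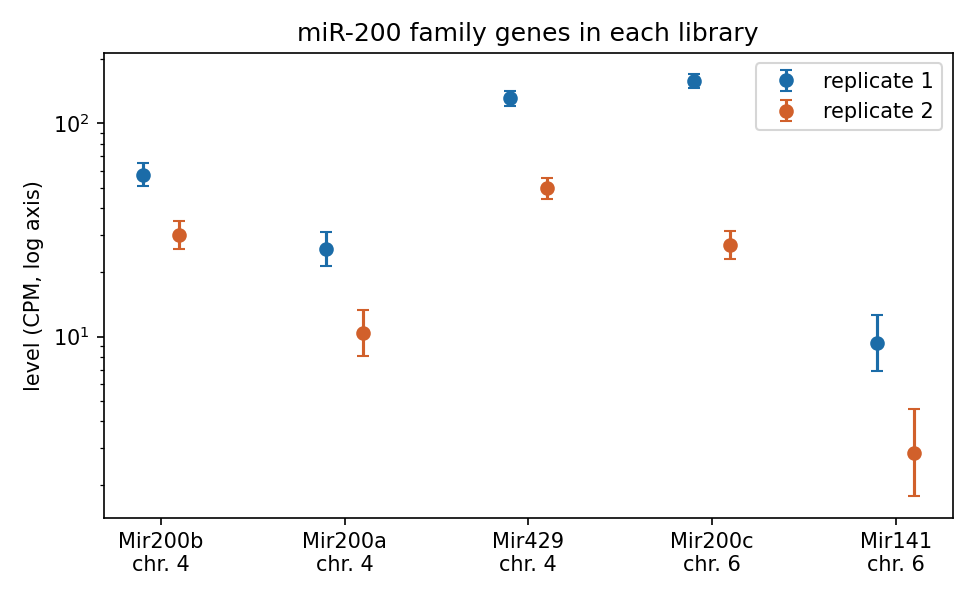
Level of each member in CPM (log axis) in replicate 1 and replicate 2, with 95% Wilson intervals. Every member is higher in replicate 1, and Mir200c leads there at 158.3 CPM while Mir429 leads in replicate 2 at 49.5 CPM.

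For every gene with 10 or more counts in each library, its reads were set against all other miRNA reads in Fisher's exact test (two-sided), adjusted by Benjamini-Hochberg over the 420 genes tested. This test compares the reads of these 2 libraries and not any condition. With so many reads it passes for much of the table, and 56.9% of all genes tested passed at an adjusted p under 0.05 in either direction, 29.8% as lower in replicate 2. All 5 members passed the count minimum, and all 5 were called lower in replicate 2. Their median log2 ratio of replicate 2 over replicate 1 was -1.41, beside -0.07 over all genes tested.

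Mir200c differed most, with a level 5.88-fold higher in replicate 1 (95% exact binomial interval 4.95 to 7.02), a log2 ratio of -2.56 and an adjusted p of 9.7e-121 by Fisher's exact test. Only Mir185, of the 420 genes tested, had a lower log2 ratio. Mir141 was 3.27-fold higher in replicate 1 (1.82 to 6.13), with an adjusted p of 4.0e-05 by Fisher's exact test and the widest interval of the family, as its counts were lowest. Mir429 was 2.66-fold higher in replicate 1 (2.31 to 3.06, adjusted p = 3.7e-45 by Fisher's exact test). Mir200a was 2.48-fold higher (1.80 to 3.43, adjusted p = 9.7e-09 by the same exact test). Mir200b differed least, at 1.92-fold (1.58 to 2.34, adjusted p = 3.2e-11 by the same exact test).

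Fisher's exact test takes no account of how far replicates vary beyond counting, so the ratios were also set beside those of other genes. Among all genes tested the median difference was 1.23-fold in either direction, and 5% of genes had a log2 ratio below -1.06. Of the 133 genes outside the family with a mean level between those of Mir141 and Mir200c, 25 were called lower in replicate 2 and 34 higher, with a median difference of 1.26-fold. In this range of levels no gene had a lower log2 ratio than Mir200c, 1 had a lower one than Mir141, 3 than Mir429, 4 than Mir200a and 6 than Mir200b. The members therefore stand at the low edge of the ratios seen at their level. With 2 libraries, which of them is the more usual for this tissue cannot be told.

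**Figure D2:**
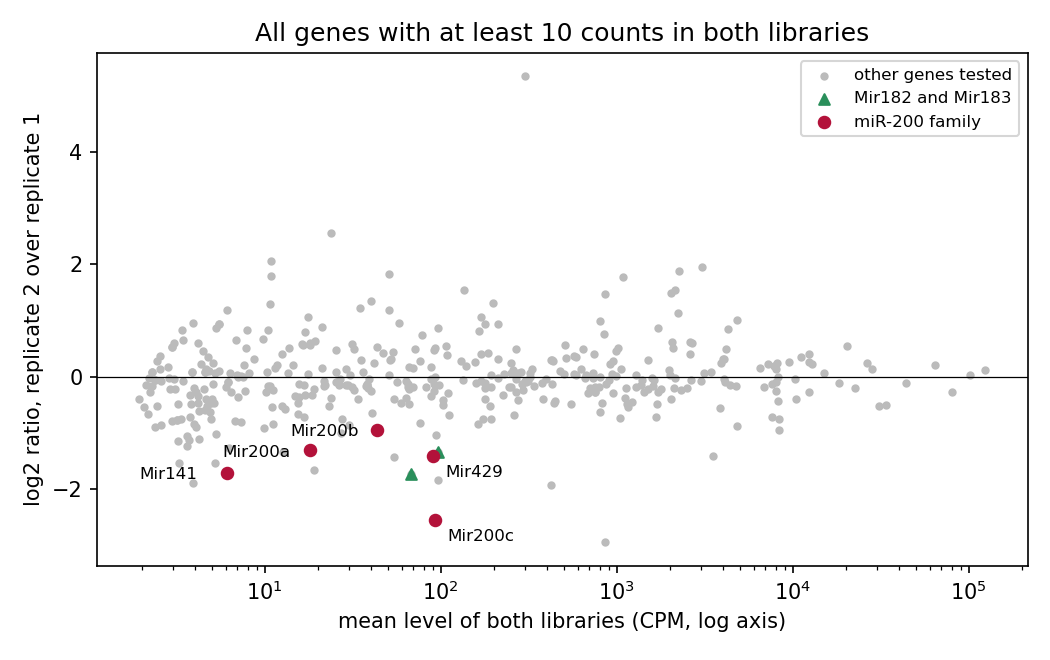
Log2 ratio of replicate 2 over replicate 1 against mean level in CPM (log axis) for the 420 genes tested, 1 point per gene. The 5 members (red) lie between -0.94 and -2.56, below most genes of like level, near Mir182 and Mir183 (green triangles).

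The clusters were then compared. The chromosome 4 cluster held 214.7 CPM in replicate 1 (95% Wilson interval 201.6 to 228.7) and 89.8 CPM in replicate 2 (82.5 to 97.7), and the chromosome 6 cluster 167.6 CPM (156.0 to 179.9) and 29.8 CPM (25.7 to 34.5). The chromosome 4 cluster was thus 2.39-fold higher in replicate 1 (95% exact binomial interval 2.15 to 2.66) and the chromosome 6 cluster 5.63-fold (4.77 to 6.66). The difference between the clusters was a further 2.35-fold for chromosome 6 (95% exact conditional interval of the odds ratio 1.93 to 2.88), and it does not depend on how the libraries are scaled. Chromosome 4 counts exceeded chromosome 6 counts by 1.28-fold in replicate 1 and by 3.02-fold in replicate 2.

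The difference between the clusters rested on Mir200c, which made up 94.5% of the chromosome 6 counts in replicate 1 and 90.4% in replicate 2. Mir200c alone was lower in replicate 2 by a further 2.46-fold relative to the chromosome 4 cluster (2.00 to 3.03). Mir141 alone gave 1.37-fold with an interval of 0.753 to 2.59, which holds both no difference and the value of Mir200c. The depth of Mir141 therefore does not settle whether both genes of chromosome 6 differed by the same factor. The direct comparison of Mir200c with Mir141 gave 1.80-fold (0.934 to 3.32). Their log2 ratios differed by 0.85. Among 104 pairs of adjacent tested genes elsewhere, on the same strand and at most 10000 bases apart, the median difference was 0.45 and 29.8% of pairs differed by more than 0.85.

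Within the chromosome 4 cluster, Mir429 made up 61.2% of the cluster's counts in replicate 1 (95% Wilson interval 58.1 to 64.3) and 55.1% in replicate 2 (50.9 to 59.3), Mir200b 26.8% (24.1 to 29.7) and 33.3% (29.5 to 37.4), and Mir200a 12.0% (10.1 to 14.2) and 11.5% (9.11 to 14.5). The ratio of Mir429 to Mir200a was nearly the same in both libraries, 5.12 and 4.77, although 908 bases separate their hairpins. Mir429 was lower in replicate 2 by 1.38-fold more than Mir200b (1.08 to 1.76), and neither differed from Mir200a beyond counting error.

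**Figure D3:**
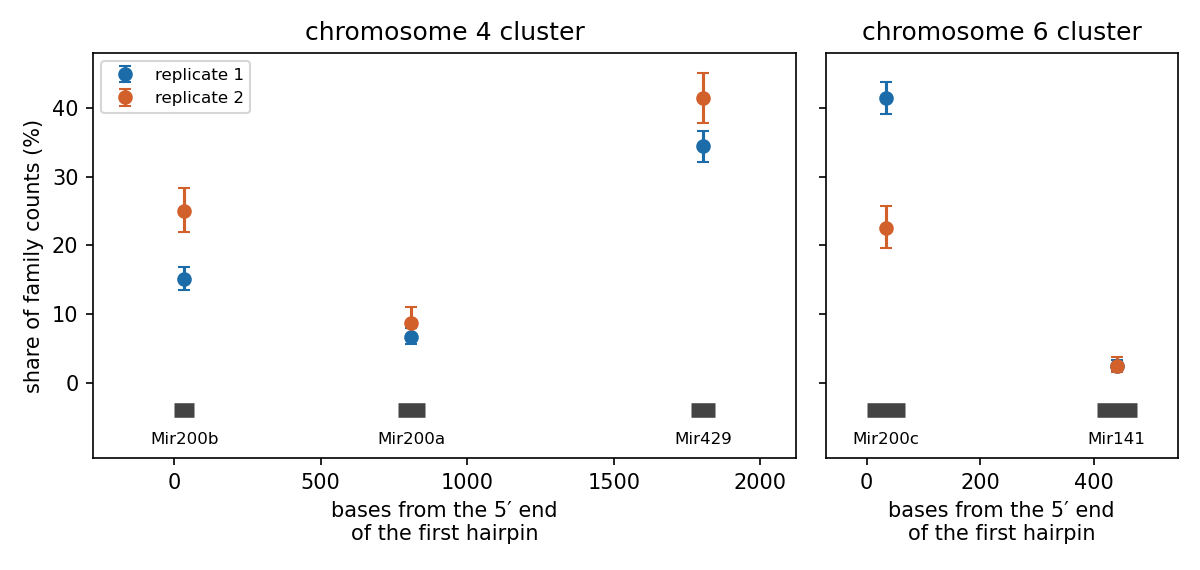
Share of all family counts held by each member in replicates 1 and 2 (percent, 95% Wilson intervals), placed at its hairpin along each cluster in bases from the 5′ end of the first hairpin, with hairpins drawn to scale in each panel. Mir200c holds 41.4% in replicate 1 and 22.5% in replicate 2, Mir200b 15.1% and 25.0%, Mir429 34.4% and 41.4%, and Mir141 2.43% and 2.38%.

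The seed groups were compared in the same way. The AAUACUG group, miR-200b, miR-200c and miR-429, held 347.3 and 106.4 CPM in replicates 1 and 2 and was 3.27-fold higher in replicate 1 (95% exact binomial interval 2.98 to 3.59). The AACACUG group, miR-200a and miR-141, held 35.0 and 13.2 CPM and was 2.65-fold higher in replicate 1 (2.01 to 3.51). The log2 ratios differed by 0.30 between the groups (95% exact conditional interval -0.13 to 0.73), so a difference was not detectable at this depth, and one of up to about 0.73 is within the interval. Within the clusters the same difference was -0.06 on chromosome 4 (-0.56 to 0.43) and 0.85 on chromosome 6 (-0.10 to 1.73), both with intervals that include 0. The pooled value changed sign when Mir200a (-0.0021) or Mir200c (-0.15) was left out. The AAUACUG group made up 90.9% of the family's counts in replicate 1 (89.4 to 92.1) and 89.0% in replicate 2 (86.4 to 91.0).

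All 10 pairs of members were compared in the same way, with no adjustment of the intervals. The pair that differed most was Mir200c and Mir200b, at 3.06-fold (2.35 to 3.98), although these share the 3p seed and 20 of 22 mature bases. Mir200c also differed from Mir200a by 2.37-fold (1.64 to 3.42) and from Mir429 by 2.21-fold (1.77 to 2.78). Of the 6 pairs across the clusters, 3 had an interval clear of no difference, and each of them includes Mir200c. Of the 4 pairs within a cluster 1 did, Mir429 and Mir200b. Of the 4 pairs with the same seed 3 did, and of the 6 pairs with different seeds 1 did. An interval narrows with the counts of its pair, so these numbers of pairs also follow depth, and the AACACUG pair, Mir200a and Mir141, differed by 1.32-fold with an interval of 0.669 to 2.69.

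**Figure D4:**
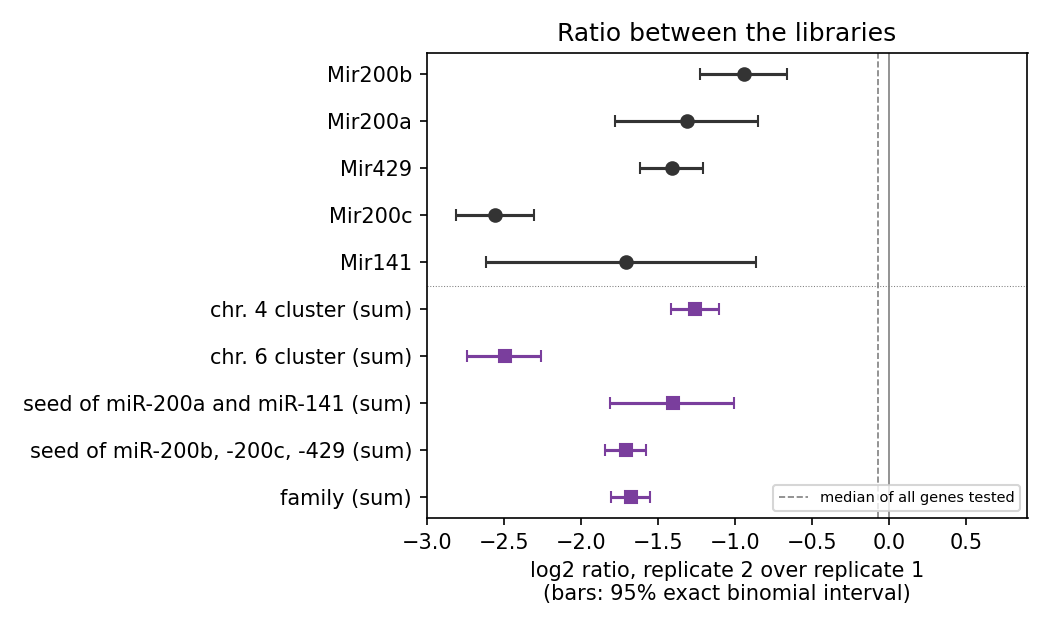
Log2 ratio of replicate 2 over replicate 1 for each member (circles) and for the summed counts of clusters, seed groups and family (squares), with 95% exact binomial intervals. The chromosome 6 cluster (-2.49) lies apart from the chromosome 4 cluster (-1.26), the seed groups (-1.40 and -1.71) overlap, and the dashed line marks the median of all genes tested (-0.07).

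The marker lists are small, and 29.8% of all 420 genes tested were called lower in replicate 2, while 114 genes were called higher. Of 4 genes tested from a list of 6 other epithelial miRNAs, none was called lower in replicate 2. Among these 4 genes 1 was called higher and 3 did not pass, with a median log2 ratio of 0.25. Mir203, a skin miRNA, reached 82.8 and 93.2 CPM in replicates 1 and 2 (adjusted p = 0.128 by Fisher's exact test). Mir31 was called higher in replicate 2, at 455.8 and 1261 CPM. Mir205, which like the miR-200 family represses Zeb1 and Zeb2, had 9 and 8 counts and was too low to test. The list of miRNAs known to restrain the epithelial-mesenchymal transition was Mir203, Mir205, Mir34a, Mir34b and Mir34c. Of these 4 were tested, none was called lower and Mir34c was called higher. This list is not separate from the others, and only Mir34a is new in it. Mir203 and Mir205 are also in the epithelial list, and Mir34b and Mir34c in that of choroid plexus and ependyma. Mir34b stood at 27.0 and 20.7 CPM (a log2 ratio of -0.38), and Fisher's exact test gave it an adjusted p of 0.0684.

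Markers of choroid plexus and ependyma, epithelia of the brain ventricles, included none called lower. Of the 4 tested among 7, Mir204 and Mir34c were called higher in replicate 2. Mir34b (log2 ratio -0.38) and Mir449a (-0.01) did not pass. The summed level was 1502 CPM in replicate 1 against 2025 in replicate 2. Most of this sum was Mir204, at 842.5 and 1152 CPM, and Mir34c, at 538.1 and 757.3 CPM, so it does not describe the other genes of the list. Mir449b was at 0 in both libraries.

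The sensory cluster of Mir183, Mir96 and Mir182, known from sensory organs and the pineal gland, was lower in replicate 2 as well. Mir183 stood at 138.3 and 54.7 CPM and Mir182 at 104.5 and 31.6 CPM, both called lower in replicate 2, while Mir96 had 32 and 3 counts and was under the count minimum. The summed level of the 3 genes was 249.9 CPM in replicate 1 and 86.8 CPM in replicate 2, 2.88-fold higher in replicate 1. The Hox cluster miRNAs of hindbrain and spinal cord summed to 36.1 and 20.9 CPM, with Mir10b (log2 ratio -0.84) and Mir196b (-1.53) called lower among 3 tested of 5, Mir10a not past the threshold (-0.23), Mir196a-2 at 9 and 0 counts and Mir196a-1 at 0 in both. The part that cells marked by these lists had in the family's difference was not tested. In bulk tissue, fewer cells of a type and less RNA per cell cannot be told apart.

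The neuroendocrine list gave a mixed picture. Mir7-1, Mir7-2 and Mir7b were called lower in replicate 2, with log2 ratios of -0.29, -0.68 and -0.23, and the islet and pituitary miRNA Mir375 was called higher, at 245.0 and 267.6 CPM (adjusted p = 0.0433 by Fisher's exact test).

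**Figure D5:**
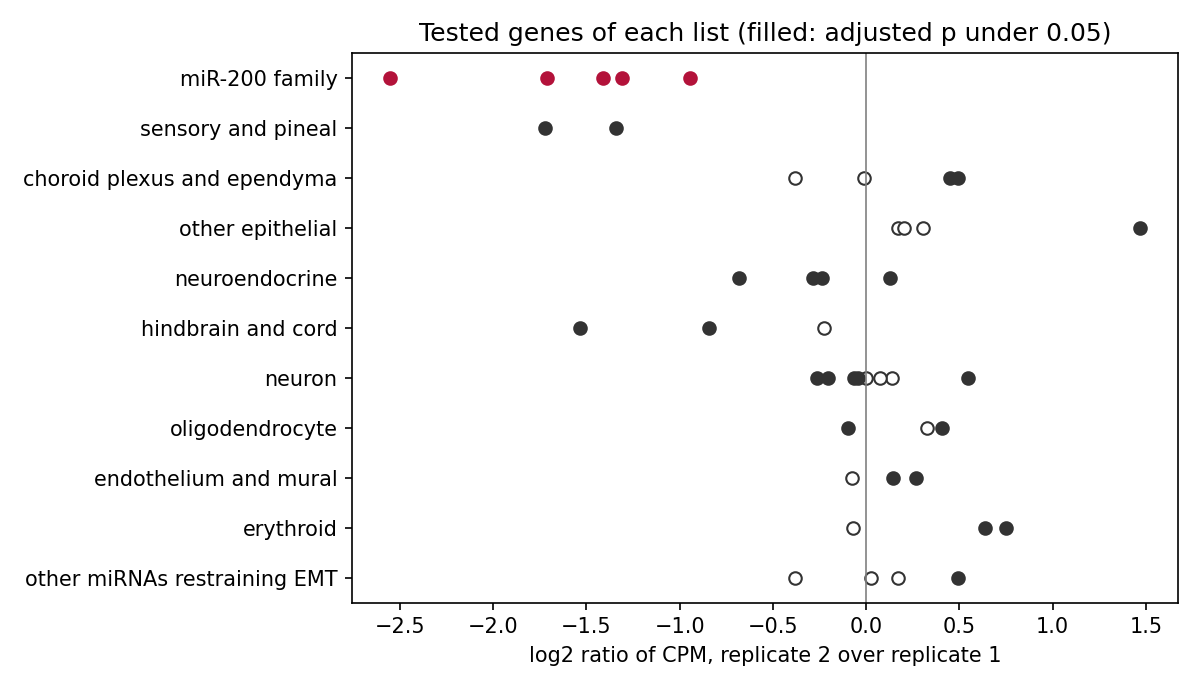
Log2 ratio of replicate 2 over replicate 1 for the tested genes of each marker list, 1 point per gene, filled where the adjusted p was under 0.05 and in red for the family. The family (-0.94 to -2.56) and the sensory genes Mir182 and Mir183 (-1.72 and -1.34) lie to the left of the choroid plexus, epithelial, oligodendrocyte and vascular lists, and Mir196b of the hindbrain and cord list (-1.53) lies within the family's range.

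The genes whose ratio lay closest to that of the summed family (-1.68) were sought among those tested at the members' levels. They were Mir1930 (-1.66), Mir182 (-1.72), the muscle miRNA Mir206 (-1.42), Mir592 (-1.34) and Gm23935 (-1.27). This likeness rests on a ratio of 2 libraries and is a description only.

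The calls were repeated with other settings. All 5 members were called lower with TMM factors, with DESeq2 size factors, with a total lacking the most abundant gene, without regard to strand, with no filter, at a minimum of 5 counts and with the deeper library thinned. The share of all genes tested that was called lower under these settings was, in the same order, 27.1%, 26.9%, 27.6%, 29.0%, 17.2%, 26.6% and 28.9%. At a minimum of 100 counts 3 members were tested, Mir200b, Mir200c and Mir429, and all 3 were called lower, beside 39.6% of genes.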

How the data were processed

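MicroRNA sequencing of 2 hippocampus libraries was analysed. The authors deposited whole-number read counts per miRNA gene for each library, not normalized and not pooled, on mm10 with GENCODE M21, per the deposited notes. The aligner, the trimming and the mismatch limit were not stated in the sources used here. Column 3 was read as the sense strand because its total exceeds that of the antisense column. Reads mapping to several places, 45.9% and 48.4% of all reads, carry no gene and were left out. All 2202 identifiers matched GENCODE M21.

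Ratios are of CPM with no pseudocount. Fisher's exact test, edgeR's TMM factors and DESeq2's size factors used Python 3.11.15, SciPy 1.17.1, edgeR 4.0.16 and DESeq2 1.42.0. With other scaling factors an exact binomial test replaced Fisher's. With 1 group, no model of a condition could be fitted. The test was checked on simulated counts that held counting error alone. That check does not cover variation between replicates beyond counting, nor reads that are copies of 1 molecule. Sums over members carry intervals and no p-value. The members and lists were chosen with earlier results of these data known. Named genes are the members, the list genes and the 5 genes of closest ratio; Mir185 was named after its value was seen.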

Additional observations from a re-analysis of the deposited data

How the results depend on the processing

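Each member kept its direction and its side of the threshold in every setting in which it was tested, and the largest adjusted p of any member was 1.2e-04 by Fisher's exact test, for Mir141 with the deeper library thinned. The count of members called lower was 5 in all settings but the minimum of 100 counts, where 3 were left to test. The family's log2 ratio of -1.68 was -1.64 with TMM, -1.63 with DESeq2 size factors and -1.67 without regard to strand. It was -1.27 without Mir200c, -1.86 without Mir200b and -1.84 without Mir429. The difference between the clusters was -0.45 without Mir200c, and between -1.10 and -1.45 without any other member. The difference between the seed groups changed sign without Mir200a (-0.0021) and without Mir200c (-0.15), where its main value of 0.30 had an interval that includes 0. The family level was 119.6 CPM without replicate 1 and 382.3 CPM without replicate 2, and 96.0 per 1000000 of all reads. No paired analysis was possible because the series has 1 group. Depth limits Mir141 most, at 17 counts in replicate 2.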

Other observations

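The remaining marker lists varied less between the replicates than the miR-200 family did. Over all 420 genes tested, 125 were called lower in replicate 2 and 114 higher. The 8 neuronal genes summed to 47778 CPM in replicate 1 and 52597 CPM in replicate 2. By Fisher's exact test 4 were called lower in replicate 2, Mir132 was called higher (log2 ratio 0.54) and 3 did not pass. The log2 ratios of those called lower were -0.27 for Mir128-1, -0.20 for Mir138-2, -0.06 for Mir128-2 and -0.05 for Mir138-1. The 3 oligodendrocyte genes summed to 6533 and 6984 CPM, of which Mir219a-2 was higher in replicate 2 and Mir338 lower (log2 ratio -0.10), while Mir219a-1 did not pass. Of the 3 endothelial and mural genes Mir126a and Mir143 were higher in replicate 2 and Mir145a did not pass, and the sum was 19223 and 22325 CPM. Of the 3 erythroid genes Mir144 and Mir451a were higher and Mir486 did not pass, and the sum was 95.4 and 142.5 CPM.

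Antisense reads on the members were nearly absent. Mir200a had 1 in replicate 1 and 2 in replicate 2, and the other members had none.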
